A study of Mus musculus with 6 samples.

Results

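The replication-dependent histone genes were taken as every gene of the count table whose symbol begins with Hist1h, Hist2h, Hist3h or Hist4h. This gave 70 genes of 48397, with 6 in the H1 class, 20 in H2A, 19 in H2B, 12 in H3 and 13 in H4. They were followed across 6 RNA-Seq libraries of stage 0 iNKT cells, the earliest thymic iNKT precursors, sorted as CD24+ CD44- CD69+, CD8- and CD4 low or negative cells that bind the PBS57-loaded CD1d tetramer. The BALB/c group was wild type, and the SKG group carried a hypomorphic mutation of Zap70, a kinase that relays the TCR signal, on the BALB/c background. Both groups were untreated, with 3 libraries each, and the comparison asks what weaker TCR signalling changes at this stage. A library was made from polyadenylated RNA of about 1000 cells pooled from 3 mice (8 to 10 weeks old), and each replicate is thus such a pool.

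Histone proteins package DNA into nucleosomes, with H2A, H2B, H3 and H4 in the core and H1 on the linker. The replication-dependent genes are expressed in S phase from clusters, under the coactivator NPAT. Their mRNAs end in a stem-loop bound by SLBP instead of a poly(A) tail, although some of these genes also give polyadenylated transcripts. A library made from polyadenylated RNA therefore holds them incompletely.

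Total reads counted on genes were 37176544 to 43115544 per library, and 10835 to 14791 genes reached 10 reads. All 10 genes listed for the stage 0 iNKT sort had reads in each library, among them Cd24a at 271 to 3443 reads and Zbtb16, which encodes PLZF, at 3358 to 6882. Of these, Cd69, which the sort selected on, was at 352.6 ± 39.89 CPM in BALB/c and 193.4 ± 50.43 CPM in SKG (SD, n = 3 each, log2 fold change -0.87, standard error 0.22, edgeR adjusted p = 0.686). Egr2, a transcription factor induced by TCR signals, was at 1351 ± 230.1 and 777.4 ± 248.7 CPM (log2 fold change -0.80, standard error 0.27, edgeR adjusted p = 0.834). Levels are in CPM, the counts scaled to a library's TMM-normalized total over the genes tested. A count of 0 in a library allows up to 3 reads, or 0.0664 to 0.083 CPM, and this limit covers counting error only.

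The stem-loop itself is shown for 6 genes that the results turn on, with the 16 bases of the inverted repeat in capitals and up to 5 flanking bases on either side in lower case. They were read 5′ to 3′ on the gene's strand from GRCm38.
Hist1h1e: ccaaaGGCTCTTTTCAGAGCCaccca
Hist1h1c: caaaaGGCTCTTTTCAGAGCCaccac
Hist1h2ap: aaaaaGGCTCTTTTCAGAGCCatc
Hist3h2ba: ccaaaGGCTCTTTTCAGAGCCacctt
Hist1h3a: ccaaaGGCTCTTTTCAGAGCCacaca
Hist1h4d: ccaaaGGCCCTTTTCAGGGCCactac
In the repeat the stem has 6 bases and the loop 4. A search for such a repeat, with a stem that opens with GG and a loop that opens with TT, found it in 44 of 70 histone gene models and in 83 of 21810 other protein-coding genes (0.4%).

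Few reads fell on these genes. Over the 6 libraries they took 11420 of 239142336 reads, or 0.00478%. The reads were 3649, 1673 and 1264 in BALB/c replicates 1 to 3 and 1204, 1183 and 2447 in SKG replicates 1 to 3. As a share of all reads this was 0.00879% in BALB/c replicate 1 (exact Clopper-Pearson 95% interval 0.00851 to 0.00908) and 0.00293% in BALB/c replicate 3 (0.00277 to 0.0031), the highest and the lowest of the 6. BALB/c replicate 1 and SKG replicate 3 stood above the other 4 libraries.

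Summed over the 70 genes, the level was 88.47, 45.1 and 27.99 CPM in BALB/c and 29.88, 30.43 and 67.66 CPM in SKG. The means were 53.85 ± 31.18 (SD, n = 3) and 42.66 ± 21.66 (SD, n = 3), and the libraries of the genotypes overlapped. The difference was smaller than the spread within either genotype. In bulk RNA, fewer cells of a type and less RNA per cell cannot be told apart.

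Myeloid, B cell, double-positive thymocyte and erythroid markers were highest, within either genotype, in the libraries with the highest histone sums. The erythroid markers reached only 0.719 CPM there in SKG. Thymic epithelial markers were highest in SKG replicate 3 within SKG, but in BALB/c replicate 3 within BALB/c. The 7 myeloid markers reached 64.76 CPM for BALB/c replicate 1 and 163.6 CPM for SKG replicate 3, against 4.384 to 10.29 CPM in the other 4 libraries, with all 7 counted somewhere but Csf1r, Itgam and Adgre1 at 0 to 8 reads. The 7 B cell markers summed to 6.837 and 21.4 CPM in the same libraries and 1.727 to 3.897 CPM in the other 4, with Pax5 at 0 to 5 reads. The 10 markers of double-positive thymocytes, which the CD4 and CD8 gates were set to remove, ranged from 76.98 to 480.4 CPM in BALB/c and from 108.7 to 244.1 CPM in SKG. The 7 erythroid markers summed to 69.73 CPM in BALB/c replicate 1 and at most 1.771 CPM elsewhere (0.719 CPM in SKG replicate 3), with Alas2 at 0 throughout. The 7 thymic epithelial markers, 3 of them at 0 throughout, summed to 28.54, 40.2 and 57.19 CPM for BALB/c and 55.64, 14.54 and 99.44 CPM for SKG. The part of these cells in the histone levels was not tested. Without BALB/c replicate 1 and SKG replicate 3, a choice made after their marker and histone levels were seen, the log2 ratio of the summed means (SKG over BALB/c) was -0.2668, against -0.3361 with all libraries. It turned to 0.2264 without BALB/c replicate 1 alone and to 0.04073 without Hist2h2be, and was -0.822 without SKG replicate 3 alone, so its direction was set by single libraries and a single gene.

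**Figure D1:**
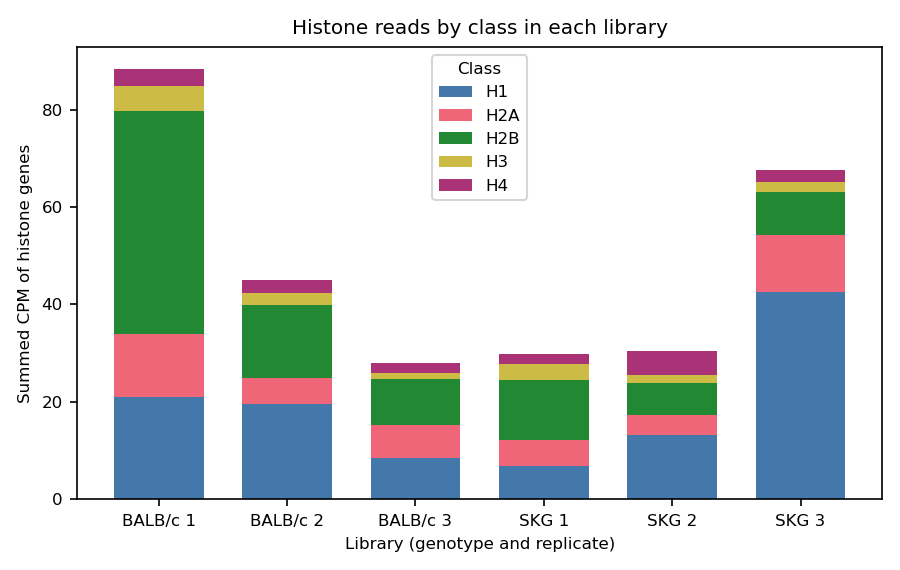
Summed CPM of the histone genes in each library (vertical axis, from 0), stacked by class, with 1 bar per library (horizontal axis). The tallest bars are BALB/c replicate 1 (88.47 CPM) and SKG replicate 3 (67.66 CPM), against 27.99 to 45.1 CPM in the other 4.

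By class, H1 took 37.6% of the histone reads, H2B 34.5%, H2A 16.1%, H4 6.19% and H3 5.63%. The linker class H1 was at 16.31 ± 6.899 CPM (SD, n = 3) in BALB/c and 20.84 ± 19.01 CPM (SD, n = 3) in SKG. For H2A the means were 8.398 ± 4.035 and 7.043 ± 4.089 CPM, for H3 2.979 ± 2.039 and 2.41 ± 0.923 CPM, and for H4 2.813 ± 0.7213 and 3.137 ± 1.554 CPM. H2B had the widest gap between genotypes, with 45.68, 14.88 and 9.498 CPM in BALB/c and 12.29, 6.612 and 8.793 CPM in SKG, or a mean 2.53-fold higher in BALB/c. This gap lay mostly in BALB/c replicate 1 and in Hist2h2be. The log2 ratio of the H2B means (SKG over BALB/c) was -1.339, and it was -0.3974 without that library and -0.3684 without that gene. The libraries of the genotypes overlapped in all 5 classes.

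Reads were concentrated on few genes, and which ones differed between libraries. The 5 genes with the most reads held 70.4% of the histone reads and the 10 with the most held 82.6%. Hist2h2be was the most counted histone gene in replicate 1 of both genotypes, Hist1h1e in BALB/c replicates 2 and 3 and SKG replicate 2, and Hist1h1c in SKG replicate 3. The most counted gene took from 13.1% (BALB/c replicate 3) to 44.7% (SKG replicate 3) of a library's histone reads.

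**Figure D2:**
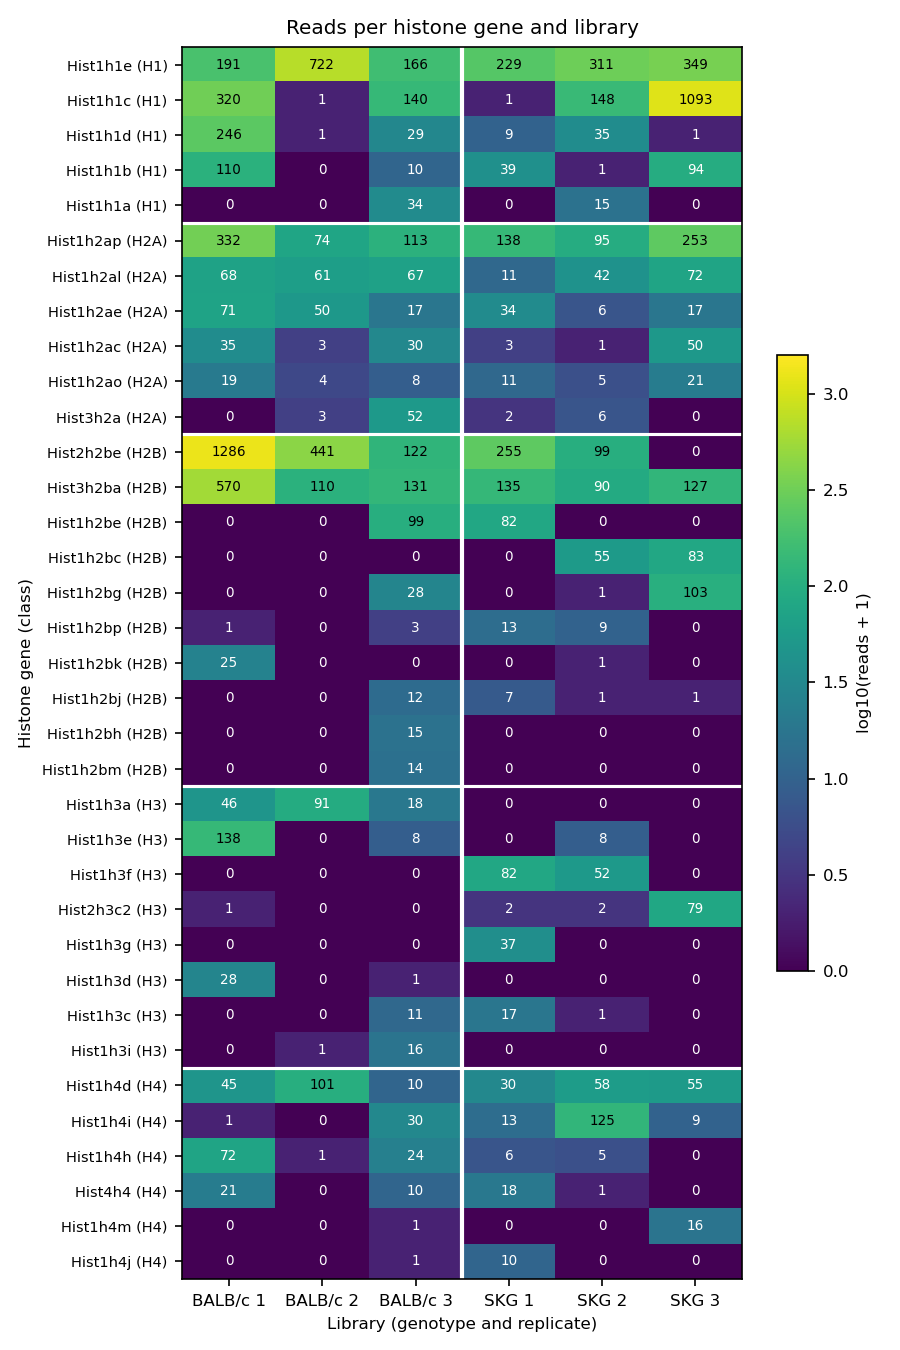
Reads in each library (columns) for the 35 histone genes with at least 10 reads in a library (rows, grouped by class), with the count in each cell and colour on a log10(reads + 1) scale. Only Hist1h1e, Hist1h2ap, Hist1h2al, Hist3h2ba and Hist1h4d have at least 10 reads in all 6 libraries, and 13 genes have them in 1 library only.

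Of the 70 genes, 14 had no read in any library and 56 had a read, and 11 had reads in all 6. Among the 14 were Hist1h1t, Hist1h2aa and Hist1h2ba, which encode testis histones. A further 5 genes had at least 100 reads in 1 library and 0 in another, namely Hist2h2be, Hist1h1b, Hist1h4i, Hist1h3e and Hist1h2bg. Such gaps were common across the table at these read numbers. Of the genes with at least 100 and under 1000 reads in all, 9 of 14 histone genes (64.3%) and 70.5% of other genes had 0 reads in a library, and from 1000 to under 10000 reads these were 1 of 5 (20%) and 9.91%.

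Of the 70 genes, only 14 passed the filter on low counts and were tested with edgeR, and they held 87.2% of the histone reads. The remaining 56 did not pass it. With the thresholds set at FDR < 0.1 and a 1.5-fold change, 0 of the 14 were called, and across all genes 0 of 12312 (0%) were called. At an unadjusted p under 0.05 there was 1 of 14, against 5.45% of all genes tested, and 1 of 14 showed no overlap between genotypes, against 13.9%. In the fit 5 of the 14 had higher values in SKG and 9 in BALB/c, with a median log2 fold change (SKG over BALB/c) of -0.179, against -0.0163 over all genes. Their median standard error was 1.33 on the log2 scale, against 0.626 over all genes tested, so a change of several fold in a single histone gene was not detectable in these libraries.

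**Figure D3:**
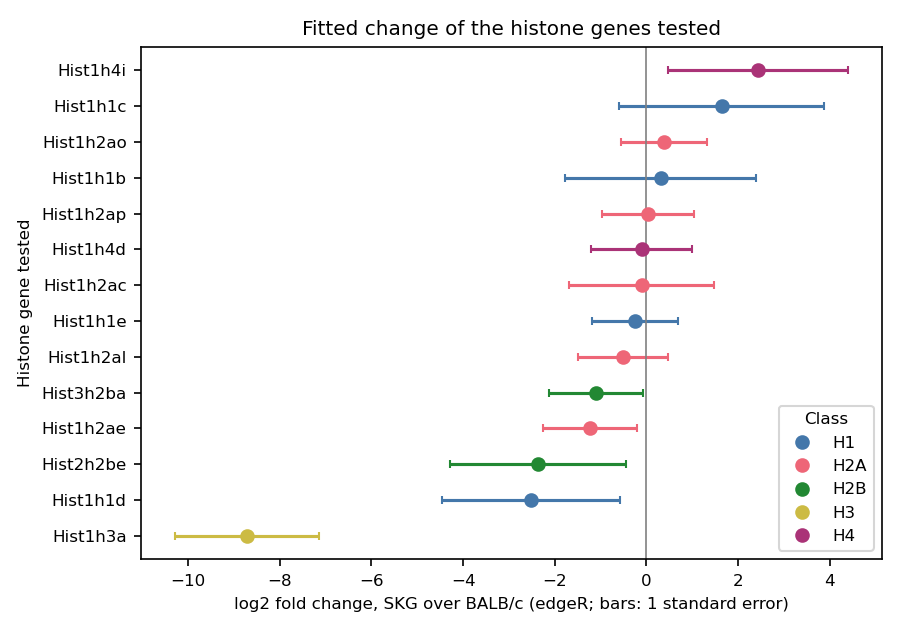
Log2 fold change of SKG over BALB/c from edgeR (horizontal axis) for the 14 histone genes tested (vertical axis), with bars of 1 standard error and colour by class. Hist1h3a, with 0 reads in all SKG libraries, is the only gene with an unadjusted p under 0.05, and its fitted value depends on the prior count.

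In the H1 class, Hist1h1e (H1.4), on chromosome 13 from 23620629 to 23622558, had 191, 722 and 166 reads across the BALB/c replicates, compared with 229, 311 and 349 for SKG. BALB/c replicate 2 was the highest and BALB/c replicate 3 the lowest, so the SKG libraries lay inside the BALB/c range. The means were 9.257 ± 8.853 and 7.778 ± 1.993 CPM (SD, n = 3 each), and the log2 fold change was -0.25 (standard error 0.94, edgeR adjusted p = 0.994). Its exons share 496 bases with Hist1h2be, an H2B gene with 99 reads in BALB/c replicate 3, 82 in SKG replicate 1 and 0 elsewhere, so reads there cannot be told apart.

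Hist1h1c (H1.2), on chromosome 13 from 23738808 to 23740367, had 320, 1 and 140 reads across the BALB/c replicates, compared with 1, 148 and 1093 for SKG. Each genotype held a library with a single read beside libraries with over 100. The log2 fold change was 1.64 (standard error 2.24, edgeR adjusted p = 0.991). Hist1h1d (H1.3) had 246, 1 and 29 reads across the BALB/c replicates, compared with 9, 35 and 1 for SKG (log2 fold change -2.52, standard error 1.95, edgeR adjusted p = 0.991). Hist1h1b (H1.5) had 110, 0 and 10 reads against 39, 1 and 94. The libraries low for Hist1h1c, Hist1h1d and Hist1h1b were not the same, apart from BALB/c replicate 2, which had at most 1 read on each. Hist1h1a (H1.1) was not tested and had 34 reads in BALB/c replicate 3, 15 in SKG replicate 2 and 0 elsewhere.

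In the H2A class, Hist1h2ap, on chromosome 13 from 21833026 to 21833507, had 332, 74 and 113 reads across the BALB/c replicates, compared with 138, 95 and 253 for SKG. It was the histone gene with the highest level per length, at 8.787 CPM per kb of exon. Its means were 4.182 ± 3.359 and 4.288 ± 2.396 CPM (SD, n = 3 each), with a log2 fold change of 0.04 (standard error 1.01, edgeR adjusted p = 0.999). Hist1h2ap and Hist1h2ao are near-identical, with only 6.9% and 6.5% of their 50-base windows found nowhere else in the annotated transcripts, so the split between them is uncertain. Their summed reads were 1073, with 78 to 351 per library.

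Hist1h2al had 68, 61 and 67 reads across the BALB/c replicates, compared with 11, 42 and 72 for SKG. The BALB/c libraries were close together, at 1.592 ± 0.09423 CPM (SD, n = 3), and the SKG libraries extended to either side of them. The annotation lists it as a processed pseudogene, on chromosome 13 from 51202727 to 51203065, away from the other Hist1 genes. Hist1h2ae had 71, 50 and 17 reads against 34, 6 and 17, and Hist1h2ac had 35, 3 and 30 against 3, 1 and 50, with overlap in both.

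In the H2B class, Hist2h2be, on chromosome 3 from 96221119 to 96223738, had the most reads of all histone genes, 2203. BALB/c replicates had 1286, 441 and 122 of these, and SKG replicates 255, 99 and 0. The range ran from the highest count of any histone gene in any library to 0, and SKG replicate 1 lay above BALB/c replicate 3. The log2 fold change was -2.36 (standard error 1.92, edgeR adjusted p = 0.991).

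Hist3h2ba, on chromosome 11 from 58948920 to 58949533, had 570, 110 and 131 reads across the BALB/c replicates, compared with 135, 90 and 127 for SKG. Outside BALB/c replicate 1 the 5 libraries lay within 90 to 135 reads. The log2 fold change was -1.10 (standard error 1.02, edgeR adjusted p = 0.991), and it was 0.06 without that library. Among H2B genes that were not tested, Hist1h2bc had 55 and 83 reads in SKG replicates 2 and 3 and 0 in the other 4, and Hist1h2bg had 28 in BALB/c replicate 3, 103 in SKG replicate 3 and at most 1 elsewhere.

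In the H3 class, Hist1h3a was the 1 tested histone gene without overlap between genotypes. It lies on chromosome 13 from 23761853 to 23762386 and had 46, 91 and 18 reads across the BALB/c replicates, compared with 0, 0 and 0 for SKG. Its level in BALB/c was 1.322 ± 1.043 CPM (SD, n = 3). Pooled over the BALB/c group, its 155 reads came to 1.255 CPM, at least 48.2-fold higher than the 0.026 CPM that 3 reads over the whole SKG group would give. The largest such bounds in the other direction, for genes with 0 reads in BALB/c, were 49.3-fold for Hist1h2bc and 47.8-fold for Hist1h3f. Both of these had reads in 2 SKG libraries and were not tested. Hist1h3a passed the filter on low counts through its BALB/c libraries alone, so a difference was built into its being tested, and its p-values are given as a description. The unadjusted p was 0.00341 and the adjusted p 0.619 with edgeR, over 12312 genes. At an unadjusted p under 0.05, 2.38% of all genes tested were higher in BALB/c (3.07% in SKG), and without overlap these shares were 7.12% and 6.77%. The call depended on the tool and on which genes entered it. DESeq2 without shrinkage gave an adjusted p of 0.00628 on all genes with a read, where 2.58% of genes with an adjusted p were called. On the genes that edgeR tested, the same DESeq2 test gave 0.322. With shrunken fold changes on all genes with a read it was 0.134, where 1.59% were called, and over all settings the adjusted p ran from 0.00628 to 1.

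Other H3 genes did not pass the filter, with their reads in few libraries. Hist1h3f had 82 and 52 reads in SKG replicates 1 and 2 and 0 in the other 4 libraries. Hist1h3e had 138 reads in BALB/c replicate 1 and 8 in each of BALB/c replicate 3 and SKG replicate 2. Hist2h3c2 had 1, 0 and 0 reads across the BALB/c replicates, compared with 2, 2 and 79 for SKG, and 94% of its reads came from SKG replicate 3. Without Hist1h3a, the log2 ratio of the H3 means turned from -0.3058 to 0.5407. Hist1h2ai, an H2A gene with 3, 3 and 2 reads against 0, and Hist1h3h, with 2, 1 and 1 against 0, lay within the 3 reads that a count of 0 allows in a single library. Pooled over the group, as for Hist1h3a, their BALB/c levels were at least 2.49-fold and 1.25-fold above the SKG group floor. Neither gene was tested.

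In the H4 class, Hist1h4d had 45, 101 and 10 reads across the BALB/c replicates, compared with 30, 58 and 55 for SKG (log2 fold change -0.10, standard error 1.10, edgeR adjusted p = 0.999). The SKG libraries lay inside the BALB/c range. Hist1h4i had 1, 0 and 30 reads against 13, 125 and 9, with a log2 fold change of 2.44 (standard error 1.97, edgeR adjusted p = 0.991), the highest of the 14. SKG replicate 2 held 70.2% of its reads. The H4 genes next in level were not tested, and Hist1h4h had 72, 1 and 24 reads against 6, 5 and 0, while Hist4h4 had 21, 0 and 10 against 18, 1 and 0.

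The gene models were then divided by the stem-loop shown above. In 22 of the 44 genes with the repeat, the model ran on for over 100 bases past it, and these genes held 59.7% of the histone reads (45.8% to 77% by library) and 8 of the 14 genes tested. The 22 whose model ended nearer held 13.4%, and the 26 with no repeat in the model held 26.9%. The groups also differed in model length, with medians of 1255, 483.5 and 408 bases, and per kb of exon they had 176, 137 and 174 reads. In the group with no repeat, whose share ran from 10.4% to 40.4% by library, 2203 of 3073 reads were on Hist2h2be. Among genes that end near the repeat, Hist1h2ap had 1005 reads and a model that stops 3 bases after it. The Hist1h2ap model contains a run of 12 A, as does that of Hist1h2ao, which also ends near the repeat and had 68 reads. The longest run, 15 A, is in Hist1h2ac, with 122 reads.

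**Figure D4:**
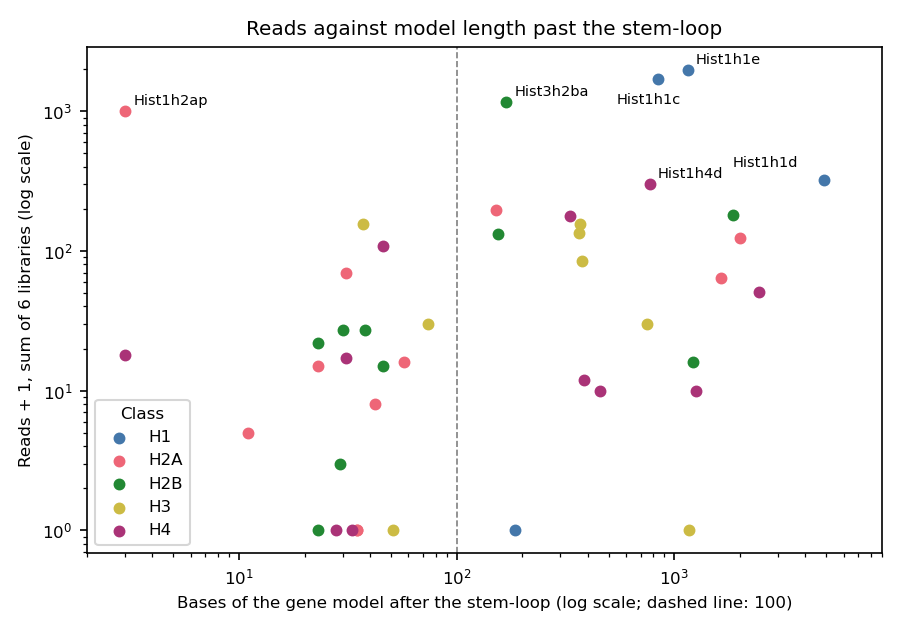
Reads + 1 summed over the 6 libraries (vertical log axis) against the bases of the gene model after the stem-loop (horizontal log axis) for the 44 histone genes with the repeat, coloured by class, with a dashed line at 100 bases. Hist1h1e and Hist1h1c lie at 1153 and 840 bases with 1968 and 1703 reads, and Hist1h2ap at 3 bases with 1005.

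Sequence identity between copies limits what can be counted, since reads that map equally well to several places fall under the mapping quality limit. Of the 70 genes, 5 had no 50-base window of their own, namely Hist2h2aa1, Hist2h2aa2, Hist2h3c1, Hist2h3b and Hist2h2bb, and all 5 had 0 reads. Each of these 5 is also covered over its whole exon length by another annotated gene at the same place. These are Gm20633 for Hist2h2aa1, Gm20632 for Hist2h2aa2, Gm20634 for Hist2h3c1, and Gm20628 for Hist2h3b and Hist2h2bb. Identity between copies and overlap in the annotation were not told apart for them. The 17 genes with over 75% of windows unique held 56.2% of the histone reads. By location, the Hist1 genes on chromosome 13 held 68.6% of the reads, Hist2 on chromosome 3 20.2%, Hist3 on chromosome 11 10.7% and Hist4 on chromosome 6 0.438%.

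Many H2A and H2B genes lie head to head and share the DNA between their starts. There were 14 such pairs, with 173 to 306 bases between the starts. Over 84 combinations of pair and library, both genes had at least 10 reads in 3 and a single gene of the pair had them in 25. Of the 25, 6 came from Hist1h2ap with Hist1h2br and 3 from Hist1h2ao with Hist1h2bq. These genes have only 2.7% to 11.3% of their 50-base windows unique. The pairs also take in the annotated pseudogenes Hist3h2bb-ps and Hist1h2aj. In every pair the exons of the H2A gene share bases with another annotated gene, and those of the H2B gene do not. For Hist1h2ap these are 138 bases, shared with Gm44466. The part of these limits in the one-sided counts was not tested.

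Promoters were searched because genes of a class share elements there. The promoters of Hist1h1e and Hist1h1c are shown since both H1 genes were among the most counted, the former with at least 10 reads in all libraries and the latter in 4. They are RefSeq windows in GRCm38.p6 from 250 bases before the start to 50 after it, at chr13:23622509-23622808 on the minus strand and chr13:23738557-23738856 on the plus strand. Capitals mark the TATA, CCAAT, H1 and GC boxes on either strand, whose letters are given after the sequences.
Hist1h1e: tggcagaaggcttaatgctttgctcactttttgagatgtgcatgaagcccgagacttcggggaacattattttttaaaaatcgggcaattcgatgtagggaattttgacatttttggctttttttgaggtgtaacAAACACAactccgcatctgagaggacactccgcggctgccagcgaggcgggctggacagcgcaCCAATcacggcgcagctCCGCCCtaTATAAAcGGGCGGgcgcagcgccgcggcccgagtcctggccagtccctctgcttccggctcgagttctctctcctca
Hist1h1c: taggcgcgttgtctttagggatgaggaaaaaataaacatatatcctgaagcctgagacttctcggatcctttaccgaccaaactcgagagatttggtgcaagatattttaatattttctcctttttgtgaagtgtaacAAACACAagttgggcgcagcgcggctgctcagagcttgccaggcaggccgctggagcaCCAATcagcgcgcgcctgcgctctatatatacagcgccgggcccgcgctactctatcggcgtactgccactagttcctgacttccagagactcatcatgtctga
Among the 62 histone genes with a RefSeq promoter, the TATA box TATAAA was found in 56.5% (13.6% of 32851 promoters of the same length), CCAAT in 85.5% (37.4%) and the GC box GGGCGG in 38.7% (35.7%). The octamer ATTTGCAT was in 21.0% (1.7%), in 7 H2A and 6 H2B promoters. The H1 box AAACACA was in 14.5% (7.2%) and in 5 of 6 H1 promoters, and CCAAT was in 3 of 12 H4 promoters and in all others by class. A single promoter was counted per gene, the first where RefSeq gave more. For Hist1h2ap this was the promoter of Hist1h2ao, which holds a GC box, while that of Hist1h2ap itself holds none. For Hist1h2be a further promoter with an octamer and a GC box was not counted. Both strands were searched, the motifs do not overlap each other by their letters, and a match is no evidence of binding.

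Replacement histone genes, which are mostly expressed through the cell cycle and have polyadenylated mRNAs, were far higher in sum. The 13 listed summed to 3302 ± 392.2 CPM in BALB/c and 3424 ± 361.6 CPM in SKG (SD, n = 3 each), and the summed level of the 70 genes was 1.43% of theirs. Per length, H3f3b, which encodes H3.3, was at 616.4 CPM per kb of exon, H3f3a (also H3.3) at 118.5, H2afx (H2A.X) at 112.9, H2afz (H2A.Z) at 72.22 and H1f0 (H1.0) at 24.34. Of the 13 replacement genes, 4 lay below Hist1h2ap at 8.787 CPM per kb, namely H1fx at 0.3925, H1foo at 0.003073, and H2afy2 and H2afb1 with 0 reads. Of 10 replacement genes tested, 0 were called, with 6 higher in SKG and 4 in BALB/c.

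Genes that serve the histone genes were tested in the same fit. Of 24 genes for histone gene transcription and mRNA 3′ ends edgeR called 0, as it did for 24 histone chaperones, 26 S-phase genes and 19 mitosis genes. DESeq2 results were followed only for the named genes of these lists. On all genes with a read, DESeq2 called the S-phase gene Pold1 among them. Slbp, which encodes the stem-loop binding protein, was at 281.9 ± 43.90 CPM in BALB/c and 283.5 ± 21.94 CPM in SKG (SD, n = 3 each, log2 fold change 0.01, standard error 0.17, edgeR adjusted p = 0.999). Npat was at 71.41 ± 45.57 and 55.41 ± 40.71 CPM, and Casp8ap2, another histone gene coactivator, at 75.87 ± 21.31 and 99.14 ± 33.06 CPM. For the U7 snRNP subunits, Lsm10 was at 27.64 ± 8.917 and 12.83 ± 2.445 CPM (edgeR adjusted p = 0.952) and Lsm11 at 13.68 ± 11.80 and 24.63 ± 23.36 CPM. Zfp473, a histone 3′-end processing factor, had 135 reads in BALB/c replicate 3, 82 in SKG replicate 1 and 0 elsewhere, and was not tested.

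Of 102 genes tested on these lists and the replacement histone list, 4 (3.92%) had an unadjusted p under 0.05, against 5.45% of all genes tested, and these were Cstf2, Supt16, Mcm2 and Pold1. Pold1, a DNA polymerase subunit, was at 111.2 ± 20.48 CPM in BALB/c and 203.4 ± 20.53 CPM in SKG (SD, n = 3 each, log2 fold change 0.87, standard error 0.20, edgeR adjusted p = 0.619). The edgeR adjusted p was 0.834 for Cstf2 (log2 fold change 0.77), Supt16 (0.40) and Mcm2 (-0.46). The replication clamp Pcna was at 168.5 ± 10.56 and 114.3 ± 46.99 CPM, and the proliferation marker Mki67 at 22.84 ± 37.43 and 26.01 ± 9.598 CPM. The histone chaperone Nasp was at 147.0 ± 44.39 and 121.5 ± 45.51 CPM. The mitosis genes summed to 455.8, 137.7 and 153.5 CPM in BALB/c and 314.1, 152.4 and 337.0 CPM in SKG. Their highest library in each genotype was the one with the highest histone sum, though SKG replicate 1 was close to SKG replicate 3. The S-phase genes summed to 3339, 3472 and 3045 CPM in BALB/c and 3460, 2696 and 2904 CPM in SKG, so their highest libraries were not those with the highest histone sums.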

How the data were processed

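RNA-Seq reads of 50 nt from 3 BALB/c and 3 SKG libraries were aligned by the authors with HISAT2 2.1.0 to GRCm38 and counted on exons with featureCounts (Subread 1.4.4), unstranded, requiring a mapping quality of 10 or more. The deposited counts are whole numbers per gene without normalization. A second deposited table holds the authors' DESeq2 comparison and was not used. SMART-Seq v4 (18 preamplification cycles) is given by the labels and another kit by the paper's methods, and which was used is not settled.

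Genes were filtered with filterByExpr, normalized with TMM and tested with edgeR 4.0.16 (quasi-likelihood, R 4.3.3), Benjamini-Hochberg adjusted over 12312 genes, with calls at FDR < 0.1 and a 1.5-fold change or more. Standard errors were the size of the log2 fold change over the square root of F. Alternatives used DESeq2 1.42.0, limma 3.58.1, other normalizations and filters, replicate blocks and each library left out. DESeq2 was run first on the genes edgeR tested. After those calls were seen, its input was changed to all genes with a read, and both are reported.

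The members and lists were chosen with earlier results of these data known. The stem-loop pattern, the 100-base limit, windows, motifs, head-to-head limit of 500 bases, read bins and printed sequences were chosen after the counts were seen. Gene models came from GENCODE M21, later than the authors' annotation. Named genes are the 4 most counted by mean CPM in each class, tested members with an unadjusted p under 0.05, without overlap or with the highest or lowest fold change, fixed histone-related genes, and list genes with an unadjusted p under 0.05; the others named in the text were chosen after their values were seen. The study describes the libraries of a genotype as independent samples, and p-values measure the spread between these pools. All 6 libraries entered the fits without covariates. Residual correlations between libraries of the same title number were -0.0657 to 0.00991, so they were not treated as pairs.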

Additional observations from a re-analysis of the deposited data

How the results depend on the processing

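At this depth, counts of 0 and of over 100 reads occurred for the same gene within a genotype, and single libraries set many directions. edgeR called 0 of 12312 genes, DESeq2 370 without and 229 with shrinkage on all genes with a read, and 189 and 146 on the genes edgeR tested, the input tried before it was changed. With no filter on low reads, edgeR called 2. Of the histone genes 0 were called, and 1, Hist1h3a, by DESeq2 without shrinkage on all genes with a read (log2 fold change -8.097); on the genes edgeR tested, DESeq2 without shrinkage called 0 of the 12 histone genes with an adjusted p, and with shrinkage it gave no histone gene an adjusted p. The cause of these differences was not tested. Pold1 was also called by DESeq2 on all genes with a read (0.8949 and 0.8702 with shrinkage).

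The log2 ratio of summed means for H2B, -1.339, moved to -0.3684 without Hist2h2be and to -0.3599 without BALB/c replicate 1 and SKG replicate 3. That for H3 moved to 0.5407 without Hist1h3a, and H3 over the genes that pass the filter gave no value since Hist1h3a alone is left, at 0 in SKG. With each library left out the ratio ran from -0.822 to 0.2264 for all histone genes, -0.6878 to 0.762 for H1, -0.8235 to 0.2103 for H2A, -1.709 to -0.3974 for H2B, -0.6745 to 0.3753 for H3 and -0.3137 to 0.3926 for H4.

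Of 475 values of 32 named genes under alternatives, 438 kept direction and side of the threshold, 3 passed it and 34 turned direction, 20 of them in histone genes. With limma-voom the log2 fold change was 0.20 for Hist1h1e and 0.47 for Hist1h4d. With a replicate block by title number it was 0.15 and 0.32, and with a block by library number Slbp was at -0.15 (-0.0221 with library size alone). Neither block changed a call. With each library left out the log2 fold changes ran from -0.63 to 0.90 for Hist1h1e, -0.89 to 2.86 for Hist1h1c, -4.08 to 0.21 for Hist1h1d, -0.94 to 3.39 for Hist1h1b, -0.50 to 0.93 for Hist1h2ap, -3.32 to 0.46 for Hist1h2ac, -1.45 to 0.065 for Hist3h2ba and -0.60 to 0.93 for Hist1h4d. They ran from -0.0949 to 0.13 for Slbp, -0.80 to 0.26 for Npat, -0.18 to 1.34 for Lsm11, -0.61 to 0.00504 for Nasp, -0.0113 to 0.21 for H3f3b, -0.28 to 0.22 for H2afx and -0.40 to 4.39 for Mki67.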
